A study of Cynoglossus semilaevis with 30 samples.

Results

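The clock genes per1 (ncbi-103386818), tefb (ncbi-103393325) and ciart (ncbi-103394574) were followed in a flatfish, the Chinese tongue sole (Cynoglossus semilaevis), over 5 tissues and both size classes of females. They are 3 of the 22292 genes in the deposited table. Earlier results from these libraries gave them as lower in the pituitary of large than of small females, and they are taken here as chosen by those pituitary values, which are given as a description with no test. The rule that names them does not state the contrast, and if other tissues entered the choice, the tests there are not independent of it. The RefSeq gene table names per1 per1b and ciart ciarta. The symbol tefb comes from that table, and the deposited file describes this gene as thyrotroph embryonic factor-like isoform X2.

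RNA of brain, pituitary, liver, gonad and muscle was sequenced from large and small females aged 1.7 years. The design names 6 fish of each size class, and each library held the pooled RNA of 2 fish. This gave 10 groups of 3 libraries: large and small females in each of the 5 tissues. With 6 fish a class, the tissues of a class come from the same fish as far as the design says, and tests across tissues treat their libraries as independent. All groups were untreated females of the same age, with no altered allele or agent named in the labels. The labels give no hour of sampling and no light schedule for either class, so a difference in time of sampling and a difference in size cannot be told apart. In bulk tissue, fewer cells of a type and less RNA per cell also cannot be told apart.

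The vertebrate circadian clock is a transcriptional feedback loop that runs in most tissues. CLOCK or NPAS2 pairs with a BMAL protein to activate genes of the PER and CRY repressors, whose proteins later shut that activation down, and transcript levels of many loop genes swing with the hour. per1 encodes a PER repressor. ciart encodes a repressor of the CLOCK and BMAL complex, known from mammals as CHRONO. tefb encodes a factor of the PAR bZIP family, which carries the rhythm outward by binding D-box elements in other promoters, and in zebrafish thyrotroph embryonic factor is also known for its response to light.

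The libraries held 6130667 to 10504899 estimated counts. Defining markers of each tissue were high in the libraries labelled as that tissue, in both classes. The 3 libraries were nearly alike in small pituitary, large gonad and small muscle. There the mean chi-square per gene between pairs of libraries, which is 1 for sampling noise alone, lay between 1.66 and 2.47, against 5.22 to 40.2 in the other groups. Tests in gonad and muscle therefore rest on a group with little spread, and p-values measure the spread between these libraries. Whether these 3 libraries of a group came from separate pools of fish was not tested. If they did not, that group holds 1 sample, and the values with the 3 summed to 1 apply. Such values were made for the class difference within a tissue and for its comparison between tissues. The tests of level between tissues were not run with summed libraries, so they carry no such check. All 3 genes passed the low-count filter in each tissue. Their counts ran from 35 (tefb, large liver replicate 1) to 2478 (tefb, small brain replicate 3).

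Across tissues, each of the 3 genes had its own pattern of level. Levels are given here in FPKM (fragment counts corrected for transcript length and for library size, the authors' unit), over the 6 libraries of a tissue. per1 was highest in pituitary at 21.01 ± 6.23 FPKM (SD, n = 6) and lowest in gonad at 1.445 ± 0.561. Brain held 12.1 ± 4.52, liver 4.95 ± 2.98 and muscle 2.94 ± 0.390 FPKM of per1. Its gonad libraries stood below those of every other tissue.

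The output factor tefb was highest in brain and pituitary. It reached 31.0 ± 16.7 FPKM in brain and 25.9 ± 16.7 in pituitary. In liver it stood at 3.59 ± 2.41, in gonad at 4.23 ± 1.60 and in muscle at 3.83 ± 1.22 FPKM. On this scale the last 3 tissues did not separate from each other beyond their spread.

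The repressor ciart had its highest mean in liver, at 31.2 ± 30.0 FPKM, where the libraries ran from 2.05 to 84.67. Gonad held 14.6 ± 6.53, pituitary 11.95 ± 5.77, brain 8.15 ± 4.96 and muscle 8.12 ± 0.933 FPKM. Muscle was the tissue with the narrowest spread for this gene.

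The level of each gene differed between the 5 tissues in the edgeR quasi-likelihood F test over all 30 libraries, with p adjusted by Benjamini-Hochberg over all genes (per1 1.72e-12, tefb 6.45e-08, ciart 2.10e-11). So did 99.1% of all genes tested. The order within a gene depended on scaling. edgeR's TMM scaling, which sets the typical gene equal between libraries, lowered the effective size of liver and muscle libraries relative to the others. With it, the order for per1 was pituitary, liver, brain, muscle, gonad. Liver stood above brain by a log2 difference of 0.69 ± 0.22 (SE, adjusted p = 0.00731), and muscle above gonad by 2.71 ± 0.24 (adjusted p = 8.98e-11). Pituitary against liver (log2 0.16 ± 0.22, adjusted p = 0.539) and brain against muscle (log2 0.08 ± 0.22, adjusted p = 0.760) did not separate. With library totals in place of TMM, brain stood above liver by 1.39 (adjusted p = 6.42e-07). Both pairs that did not separate under TMM then passed. Pituitary stood above liver by 2.15 (adjusted p = 2.74e-10) and brain above muscle by 2.02 (adjusted p = 1.29e-09). The places of liver and muscle for per1 therefore depend on the scaling.

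For tefb, brain and pituitary did not separate (log2 0.43 ± 0.27, adjusted p = 0.180), and pituitary passed muscle by 0.73 ± 0.28 (adjusted p = 0.0235). Muscle and liver did not separate under TMM (log2 0.03 ± 0.29, adjusted p = 0.9999), and gonad was lowest, 1.38 ± 0.29 below liver (adjusted p = 0.000116). With library totals, gonad instead stood 0.33 above liver (adjusted p = 0.310) and 0.18 above muscle (adjusted p = 0.585). With either scaling, brain and pituitary stood above liver, gonad and muscle in each pair, and each pair passed.

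Averaged over the size classes, liver led for ciart with either scaling. In FPKM, small liver held 33.11, 84.67 and 41.47. Large liver held 2.05, 14.65 and 11.09, below each large gonad library (19.29, 17.97 and 21.27). Under TMM and averaged over the classes, liver passed muscle by a log2 difference of 1.51 ± 0.30 (adjusted p = 7.13e-05). Muscle passed gonad by 0.84 ± 0.29 (adjusted p = 0.0118). Gonad against pituitary (0.60 ± 0.29, adjusted p = 0.0605) and pituitary against brain (0.61 ± 0.30, adjusted p = 0.0844) did not pass. With library totals, muscle moved to below gonad by 0.77 (adjusted p = 0.0290) and to below pituitary by 0.41 (adjusted p = 0.235). These pair tests stand against the share of all genes called in each pair. Against brain, 60.2% were called for pituitary, 69.2% for liver, 87.2% for gonad and 74.8% for muscle. Against pituitary, 66.1% were called for liver, 84.3% for gonad and 73.7% for muscle. Liver gave 78.1% against gonad and 63.2% against muscle, and gonad against muscle 78.3%.

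**Figure D1:**
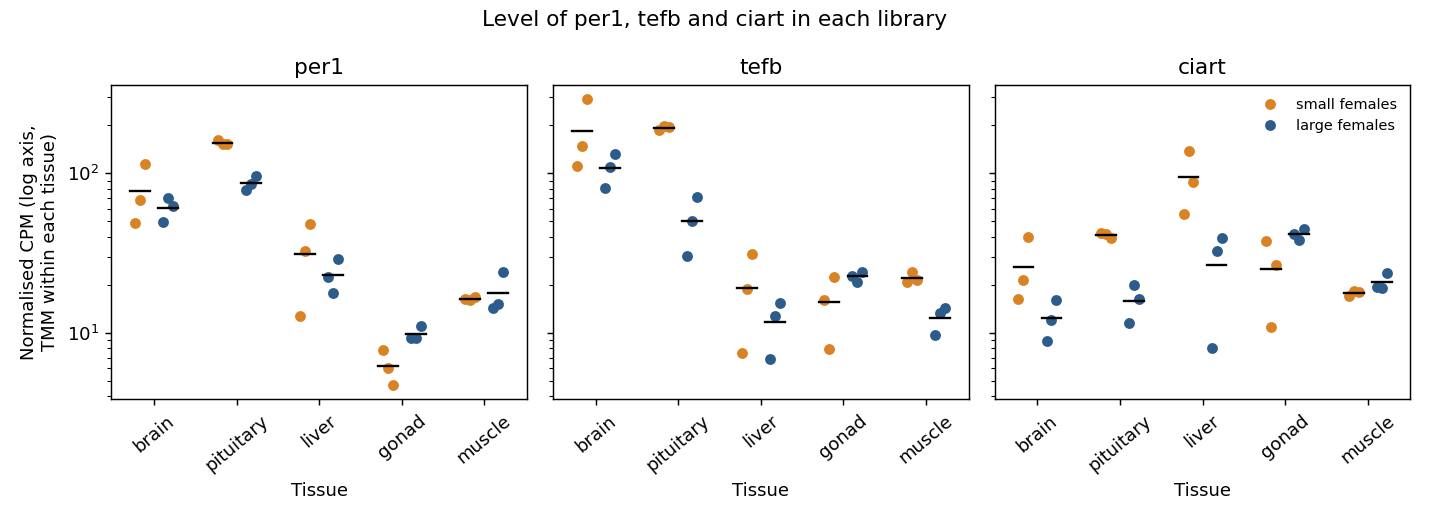
Level of per1, tefb and ciart in each of the 30 libraries, as CPM normalised with TMM within each tissue (log axis). Points are libraries, orange for small and blue for large females, and bars are group means of 3 libraries. The pituitary points of each gene fall into separate ranges by class, and in gonad the large libraries of per1 and ciart lie above the small. Heights compare within a tissue, not between tissues.

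Ratios of the genes within a library do not depend on the scaling of that library. In brain, tefb exceeded per1 and per1 exceeded ciart in 6 of 6 libraries, and the FPKM of ciart was 0.214 to 0.299 times that of tefb. In gonad the order was ciart, tefb, per1 in 6 of 6 libraries, with ciart at 2.28 to 4.55 times tefb. In muscle ciart was above both other genes in 6 of 6 libraries. In liver ciart was above tefb in 6 of 6 and above per1 in 5 of 6, the exception being large replicate 1 with 2.05 FPKM of ciart and 2.37 of per1. Per length, ciart was therefore the lowest of the 3 transcripts in brain and pituitary and the highest in gonad and muscle.

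Some of these ratios also split by size class. The ratio of tefb to per1 was above 1 in the 3 small pituitary libraries (1.43, 1.59 and 1.59) and below 1 in the 3 large (0.489, 0.724 and 0.873). In muscle it was 1.65, 1.88 and 1.65 in small females and 0.858, 1.12 and 0.780 in large. In liver the ratio of ciart to tefb was 15.3, 14.6 and 5.75 in small females and 2.36, 4.70 and 4.66 in large. In muscle this ratio ran the other way, 1.54, 1.48 and 1.60 in small and 3.82, 2.74 and 3.08 in large females. Over the 3 possible ratios and 5 tissues, the classes did not overlap in 9 of 15 sets, these 4 among them, and overlapped in 6. All 3 ratios in pituitary, the tissue taken to have chosen the genes, are among the 9. The share of all gene pairs whose ratio separates the classes was not counted, so nothing is read from the 9. Single genes often separated too: in muscle 21.6% had all large libraries below all small and 21.9% had them above. The ratio of ciart to tefb also separated in brain (0.274 to 0.299 in small, 0.214 to 0.236 in large) and in pituitary (0.395 to 0.445 in small, 0.470 to 0.771 in large). In gonad all 3 ratios overlapped. These sets are a description, and the 4 given by library were picked after their values were seen.

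**Figure D2:**
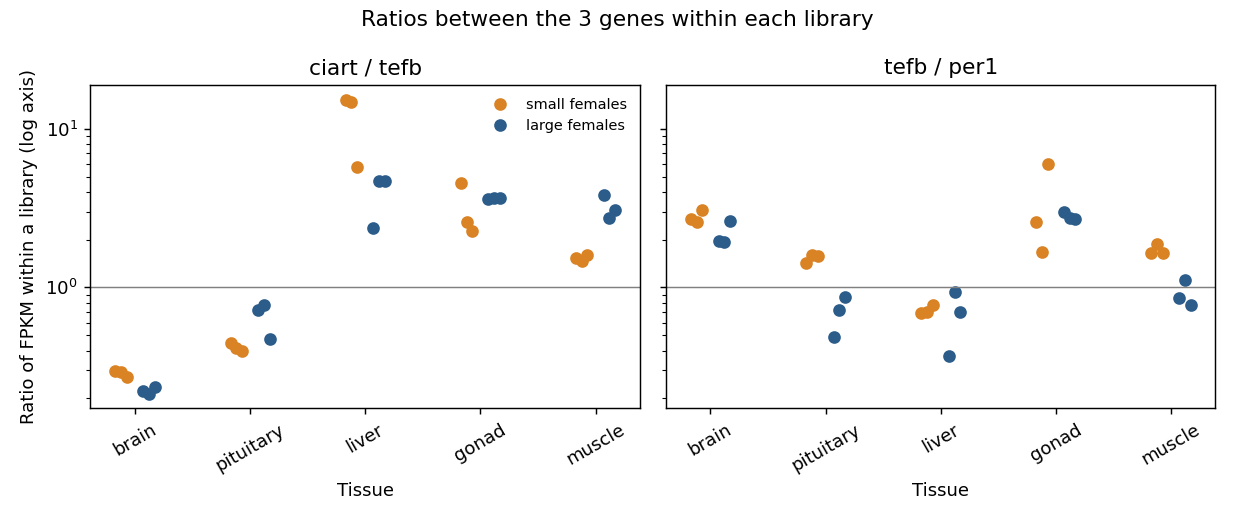
Ratio of FPKM between genes within each library, ciart over tefb at left and tefb over per1 at right (log axes), by tissue. Points are libraries, orange for small and blue for large females, and the grey line marks a ratio of 1. Brain and pituitary lie below 1 for ciart over tefb, and liver, gonad and muscle lie above it.

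Pituitary was taken as the tissue by which the genes were chosen, and in it all 3 were lower in each large library than in any small one. Values by library are normalised CPM, CPM being counts scaled to a common library size, here with TMM within the tissue. per1 stood at 161, 153 and 153 in small females and at 78.6, 86.4 and 96.3 in large. tefb stood at 187, 197 and 197 in small and at 30.5, 50.3 and 70.9 in large females. ciart stood at 42.5, 41.9 and 39.6 in small and at 11.5, 19.9 and 16.3 in large. The small libraries were tight for each gene, while the large ones spread more, most for tefb, with replicate 1 lowest and replicate 3 highest.

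The fitted log2 difference, large minus small, was -1.93 ± 0.25 for tefb, -1.38 ± 0.18 for ciart and -0.84 ± 0.10 for per1. As folds, small females held 3.82 times the tefb, 2.60 times the ciart and 1.79 times the per1 of large females. Of all genes tested in pituitary, 5.82% were called at an adjusted p under 0.05 in either direction and 15.3% had all large libraries below all small. Nothing is read from these shares, since the contrast is taken to have chosen the genes. Large pituitary replicate 2 had the highest level of brain markers. The 7 brain markers summed to 280.7 FPKM there, 8.73% of the level in brain, against 3.02% to 3.66% in the other 5 pituitary libraries. neurod2 was at 0 in all 6. The 8 liver markers were also highest in that library, at 393.2 FPKM against 67.6 to 158.9 in the others. Of 6 marker lists, 1 separated the classes in pituitary: the 2 red blood cell markers summed to 13.8 to 16.6 FPKM in small and 4.99 to 9.45 in large females, with neither at 0. Where these marker RNAs came from was not tested, nor was their part in the values of the 3 genes. Without that library the log2 differences were -1.93 for tefb, -1.57 for ciart and -0.83 for per1.

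In brain, all 3 genes had lower means in large females, but none passed. per1 was 49.0, 68.4 and 114 normalised CPM in small females and 49.6, 70.3 and 62.6 in large. tefb was 111, 149 and 292 in small and 80.6, 110 and 133 in large, and ciart was 16.3, 21.4 and 40.04 against 8.95, 12.01 and 15.998. Small brain replicate 3 held the highest level of each gene. For per1 and tefb the classes overlapped, while each large library was below each small one for ciart, as for 6.01% of all genes tested in brain.

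The log2 difference in brain was -1.08 ± 0.36 for ciart (adjusted p = 0.656), -0.77 ± 0.35 for tefb (adjusted p = 0.801) and -0.35 ± 0.29 for per1 (adjusted p = 0.899). Of the 3 genes, 0 were called by edgeR or DESeq2. Only 1, ciart, had an unadjusted p under 0.05 in edgeR, and the share of all genes at that threshold was not counted. Of all genes tested in brain, edgeR called 0.0118%, and DESeq2 called 94 genes. The intervals were wide, in part because they use 4 degrees of freedom, fewer than the test itself. The 95% interval of the log2 difference ran from -1.74 to 0.20 for tefb and from -2.08 to -0.09 for ciart. All 3 differences leaned on small replicate 3. Without it per1 was at 0.051, tefb at -0.27 and ciart at -0.62. Of 6 marker lists, 3 separated the classes in brain. The 7 brain markers summed to 2314 to 2722 FPKM in small and 3711 to 5428 in large libraries, with none at 0. The 7 pituitary markers ran from 22.6 to 44.1 in small, with pou1f1 at 0, and from 12.2 to 19.8 in large. The 9 gonad markers ran from 3.74 to 11.2 in small, with figla at 0, and from 14.2 to 76.3 in large. The 8 liver markers overlapped between the classes but were far higher, at 3016 to 3843 in small and 1569 to 4368 in large. That is 4.29% to 5.47% and 2.23% to 6.22% of their level in liver, with none at 0. The part of these RNAs in the values of the 3 genes was not tested.

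Liver gave the widest gap for ciart among the tissues not taken to have chosen the genes. ciart stood at 55.4, 139 and 88.9 normalised CPM in small females and at 8.003, 32.4 and 39.1 in large. Each large library was below each small one, as for 12.7% of the genes tested in liver, and large replicate 1 was far below the rest. per1 was 12.7, 32.6 and 48.1 in small and 22.4, 17.8 and 29.0 in large females. tefb was 7.45, 18.7 and 31.3 against 6.83, 12.8 and 15.3, so both of these genes overlapped between the classes.

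The liver log2 difference for ciart was -1.83 ± 0.54, with an adjusted p of 0.118 and an unadjusted p of 0.00755. edgeR called 0 of the 3 genes and 1.31% of all genes in liver. At an unadjusted p under 0.05, 1 of the 3 passed, and the share of all genes at that threshold was not counted. DESeq2 called 1, ciart (log2 -1.82, adjusted p = 0.0123), and 765 of all genes. Whether ciart passes in liver thus depends on the method. Over the alternatives that kept all 6 libraries its adjusted p ran from 0.0123 to 0.128. tefb (-0.70 ± 0.49, adjusted p = 0.443) and per1 (-0.43 ± 0.43, adjusted p = 0.608) did not pass. Without small replicate 3, per1 was at 0.024 and tefb at -0.16. None of the 6 marker lists separated the classes in liver. Large liver replicate 2 had the highest level of brain markers: the 7 summed to 42.45 FPKM there, 1.32% of the level in brain. The other liver libraries held 0.48 to 1.70. neurod2 was at 0 in both classes, and gfap, stmn2, gad1 and gad2 were at 0 in small. Where these marker RNAs came from was not tested, nor was their part in the liver values of the 3 genes. On the FPKM scale the median of all genes was 0.59 lower in large females by log2(FPKM + 1). On that scale the differences were -2.58 for ciart, -0.92 for tefb and -0.87 for per1. Each was lower than in the main fit, by unequal amounts.

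Gonad was the tissue in which the means of all 3 genes were higher in large females. per1 was 7.81, 6.03 and 4.72 normalised CPM in small females and 9.25, 9.27 and 11.1 in large. ciart was 37.8, 10.8 and 26.5 in small and 41.5, 38.4 and 45.0 in large. tefb was 16.1, 7.95 and 22.5 in small and 22.7, 20.9 and 24.3 in large. For per1 and ciart each large library was above each small one, as for 23.9% of all genes tested in gonad. tefb overlapped, and small replicate 2 held the lowest level of tefb and ciart.

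None of the 3 was called in gonad, where 24.5% of all genes were. The log2 difference was 0.67 ± 0.24 for per1 (adjusted p = 0.0630), 0.72 ± 0.33 for ciart (adjusted p = 0.138) and 0.53 ± 0.29 for tefb (adjusted p = 0.210). By unadjusted p under 0.05, 1 of 3 passed in edgeR, which was per1, and the share of all genes at that threshold was not counted. DESeq2 called 0 of the 3 and 3656 of all genes. The calls turned on small libraries: without small replicate 1, per1 (0.87, adjusted p = 0.0254) and ciart (1.12, adjusted p = 0.0285) passed, and without small replicate 3 tefb passed (0.89, adjusted p = 0.0393). The fit of log2(FPKM + 1) with limma also called per1 (0.57, adjusted p = 0.0285), on a scale where the median of all genes was 0.27 higher in large gonad. Of 6 marker lists, 2 separated the classes in gonad. The 9 gonad markers summed to 5803 to 6738 FPKM in small and 4879 to 5071 in large females, and the 8 liver markers to 6.62 to 7.64 and 8.28 to 9.91, with none at 0. Their part was not tested.

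Outside pituitary, the only one of the 3 genes that the main edgeR test called was tefb in muscle. tefb fell from 20.8, 24.3 and 21.6 normalised CPM in small females to 9.73, 13.2 and 14.2 in large, with no overlap. The means were 22.2 ± 1.84 and 12.4 ± 2.37 (SD, n = 3), and the log2 difference was -0.84 ± 0.19 (adjusted p = 0.0138), a 1.79-fold lower level in large females. Of all genes tested in muscle, 10.4% were called lower and 21.6% had all large libraries below all small.

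The other 2 genes did not pass in muscle. per1 was 16.2, 16.003 and 16.7 in small and 14.3, 15.2 and 23.96 in large muscle (log2 0.12 ± 0.22, adjusted p = 0.732, 95% interval -0.49 to 0.73), and without large replicate 3 it was -0.15. ciart was 17.02, 18.3 and 18.2 in small and 19.3, 19.1 and 23.8 in large (0.22 ± 0.17, adjusted p = 0.375, interval -0.24 to 0.68). Its large libraries lay above the small without overlap, as for 21.9% of genes tested.

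The tefb call in muscle leaned on the nearly alike small libraries. Without small replicate 1, 2 or 3 the adjusted p was 0.0501, 0.0724 and 0.0548, and with the 3 small libraries summed to 1, a check chosen after seeing the data, it was 0.328 at a log2 difference of -0.88. Over the alternatives that kept all libraries or summed those 3, its adjusted p ran from 0.00547 to 0.328. Of 6 marker lists, 4 separated the classes in muscle. The 9 gonad markers summed to 127.6 to 141.4 FPKM in small and 275.0 to 652.8 in large muscle, which is 2.35% to 2.60% and 5.06% to 12.01% of their level in gonad, with none at 0. The 2 red blood cell markers ran the other way, from 73.4 to 78.9 in small and from 20.7 to 32.8 in large. So did the 7 brain markers (65.6 to 72.6 and 39.98 to 64.8) and the 7 pituitary markers (2.41 to 3.73 and 1.32 to 1.93), with neurod2, gad1 and smtla at 0 in both classes and gad2, gh1 and prl at 0 in large. The 8 liver markers summed to 1460 to 1517 in small muscle and to 1777, 146.0 and 122.8 in large. The part of these RNAs in the muscle values was not tested.

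**Figure D3:**
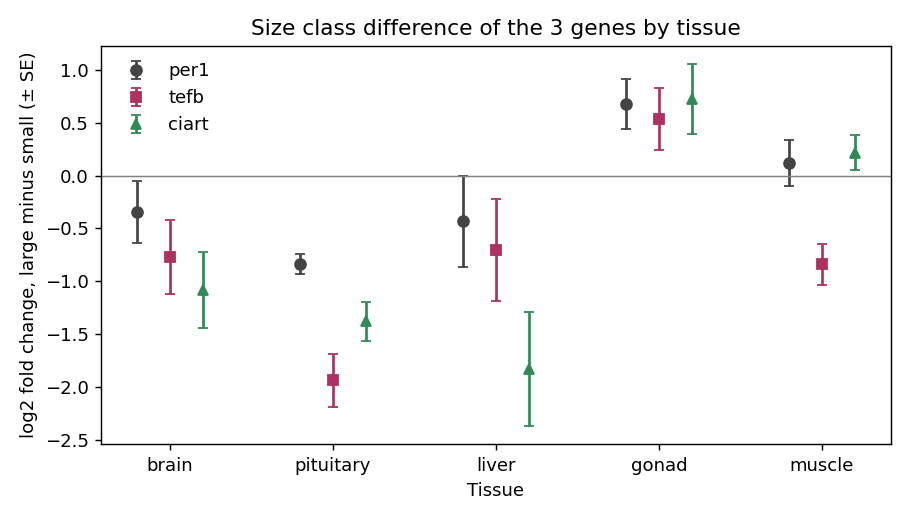
Log2 difference, large minus small females, of per1 (circles), tefb (squares) and ciart (triangles) in each tissue, with bars of 1 SE from the edgeR fit of 3 against 3 libraries. Brain, pituitary and liver points lie below 0, gonad points above it, and in muscle tefb at -0.84 stands apart from per1 at 0.12 and ciart at 0.22. The pituitary points are taken to have chosen the genes and carry no test.

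The size of the class difference was then compared between brain, liver, gonad and muscle, leaving out the pituitary, which is taken to have chosen the genes. The edgeR F test of the interaction over 24 libraries passed for ciart (adjusted p = 0.0123), whose log2 difference ran from -1.83 in liver to 0.72 in gonad. It did not pass for tefb (adjusted p = 0.209) or per1 (adjusted p = 0.230). The fit used a spread per gene shared by all of these tissues. For ciart the SD of log2 CPM within a class was 0.995 in liver and 0.131 in muscle. The shared spread may thus understate the noise in liver, where ciart did not pass in the edgeR test of that tissue (adjusted p = 0.118). With libraries of the same class and number, which may or may not hold the same fish, as a block across tissues, ciart was at 0.0122. The same test called 21.9% of all genes. Chosen after seeing the data, leaving out each of the 24 libraries kept ciart between 0.00727 and 0.0305. Summing the 3 nearly alike libraries of large gonad and of small muscle to 1 each raised its adjusted p to 0.208 and left 162 genes called in place of 4201. Without small liver replicate 1, per1 passed (adjusted p = 0.0385).

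Across the 30 libraries, after the mean of each tissue was subtracted, the 3 genes varied together. Pearson's r of log2 CPM was 0.75 for tefb and ciart, 0.74 for per1 and tefb and 0.62 for per1 and ciart. Over the 24 libraries outside pituitary it was 0.72, 0.68 and 0.55. The libraries share depth, scaling and size class, so these values describe the set and carry no p. Those over all 30 include pituitary, taken to have chosen the 3 genes, so likeness among the 3 is then partly set by that choice. The comparison took in 7147 genes with a symbol or product name whose mean reached 1 FPKM in every tissue. Among these, tefb was the gene most like per1 with the pituitary libraries included. Without them its r of 0.675 was below those of mntb (0.705) and schip1 (0.681).

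The genes most like tefb were csrnp1 (r = 0.80), which encodes a cysteine and serine rich nuclear protein, arap3 (0.77), ciart (0.75), per1 (0.74) and phldb2b (0.74). Those most like ciart were fbxw7 (0.82), which encodes the F-box subunit of a ubiquitin ligase, cebpd (0.80), LOC103385158, described as tumor protein D54-like (0.77), the cyclic AMP phosphodiesterase gene pde8a (0.77) and tefb (0.75). After tefb, per1 was followed by mntb (0.70), a MAX-binding repressor, schip1 (0.67), LOC103397501, described as drebrin-like (0.66), and obfc1 (0.66), which encodes a subunit of the telomere-capping CST complex. Without pituitary these 11 other genes kept r values between 0.59 and 0.83.

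Each of the 3 genes has relatives in the table whose reads the authors' counting could have split, so the levels of close copies are uncertain. The paralog tefa, also a D-box activator, did not pass in any tissue and had a log2 difference of -0.28 in pituitary, where tefb was at -1.93. In muscle, where tefb was called, tefa stood at 48.9 and 47.2 normalised CPM (log2 -0.05, adjusted p = 0.848). ciartb, the other named copy of ciart, stood at 42.7 and 44.8 in small and large pituitary, where ciart was 41.3 and 15.9. In liver ciartb had a log2 difference of -1.94 (adjusted p = 0.0716), close to that of ciart at -1.83. Of the PER genes, per3 rose in gonad from 21.2 ± 2.21 to 34.1 ± 2.69 (log2 0.69 ± 0.14, adjusted p = 0.00821), where per1 was at 0.67 without a call. Neither per2 gene passed in any tissue.

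The wider clock list held 61 genes, 58 of them besides these 3, and was drawn up with earlier results of these data known. In brain 0 of 49 tested clock genes were called by edgeR or DESeq2. At an unadjusted p under 0.05, 2 were higher and 2 lower, with the share of all genes at that threshold not counted. The median log2 difference of the 49 was 0.03, against 0.00 for all genes. In liver 1 of 42 was called, or 2.38% against 1.31% of all genes. It was LOC103395376, described as ubiquitin carboxyl-terminal hydrolase 2-like, which rose from 0.815 to 6.61 normalised CPM (log2 3.05 ± 0.40, adjusted p = 0.0103). DESeq2 called 5 in liver, where it called 765 of all genes, and without small liver replicate 3 edgeR called 7, with 1209 of all genes.

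In pituitary 8 of 46 were called, or 17.4% against 5.82% of all genes, all lower in large females, with a median of -0.20 against 0.02 for all genes. This is the contrast taken to have chosen the 3 genes, so the count describes it and no p is given. The repressor bhlhe40 stood at 235 ± 9.24 and 150 ± 9.01 normalised CPM in small and large females. The nuclear receptor genes nr1d2 (168 and 114) and nr1d2b (61.1 and 43.6), which belong to the REV-ERB repressors, and the D-box factor dbpb (63.5 and 40.7) were among the 8. The others were cipcb, LOC103382237 (hepatic leukemia factor-like), LOC103385152 (cryptochrome-1-like) and a csnk1e gene. Their log2 differences ran from -1.18 to -0.35, and tefb and ciart lay below that range. Without small replicate 1, 2 or 3 the count was 0, 1 and 0, and with these 3 summed it was 0.

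In gonad 6 of 46 clock genes rose and 3 fell, or 19.6% against 24.5% of all genes. The activators bmal2 (15.5 to 23.1 normalised CPM, log2 0.57 ± 0.15, adjusted p = 0.0243) and npas2 (0.915 to 2.24) were among those that rose, as were per3, cry2 and csnk1d, which encodes a kinase of PER proteins. CRY1 and LOC103388243 (ciart-like) were among those that fell. The ciart-like gene fell from 3.35 ± 0.281 to 1.49 ± 0.325 (log2 -1.17 ± 0.32, adjusted p = 0.0291), while ciart itself had a higher mean in large gonad. Without large gonad replicate 1, 2 or 3 the count of 9 was 3, 2 and 3, and with these summed it was 0.

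In muscle 11 of 45 clock genes fell and 4 rose, or 33.3% against 23.5% of all genes, and the median was -0.31 against 0.03. D-box factors, the class of tefb, made up 6 of the 11: of 10 tested besides tefb, 6 fell, 1 rose and 3 did not pass, with a median of -0.93. dbpb fell from 34.7 ± 2.94 to 18.1 ± 3.98 (log2 -0.94 ± 0.19, adjusted p = 0.00898), close to tefb at -0.84. The nfil3 family, which binds the same elements as a repressor, gave nfil3-6 (18.0 to 6.89), nfil3 (7.96 to 4.24) and LOC103384212 (6.94 to 2.36) among the falls and LOC103384045 (0.208 to 1.92) as the rise. hlfa and LOC103382237 of the PAR bZIP class also fell.

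Among the other roles in muscle, nr1d2 fell from 114 ± 4.82 to 40.6 ± 9.82 (log2 -1.50 ± 0.20, adjusted p = 0.00250) and nr1d2b rose from 6.18 ± 1.13 to 14.1 ± 3.33 (1.18 ± 0.24, adjusted p = 0.00915). bhlhe40, npas2, LOC103385152 and LOC103395037 (CLOCK-interacting pacemaker-like) fell, and cry-dash and LOC103383077, described as a BMAL1 gene, rose. The main BMAL1 gene arntl (39.2 and 29.0), clocka (10.7 and 14.9), clockb (4.39 and 3.54), bhlhe41 (34.9 and 36.3) and LOC103385997, one of the REV-ERB alpha-like genes (15.5 and 15.4), did not pass. Without small muscle replicate 1, 2 or 3 the count of 15 was 8, 7 and 8, and with these summed it was 0.

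**Figure D4:**
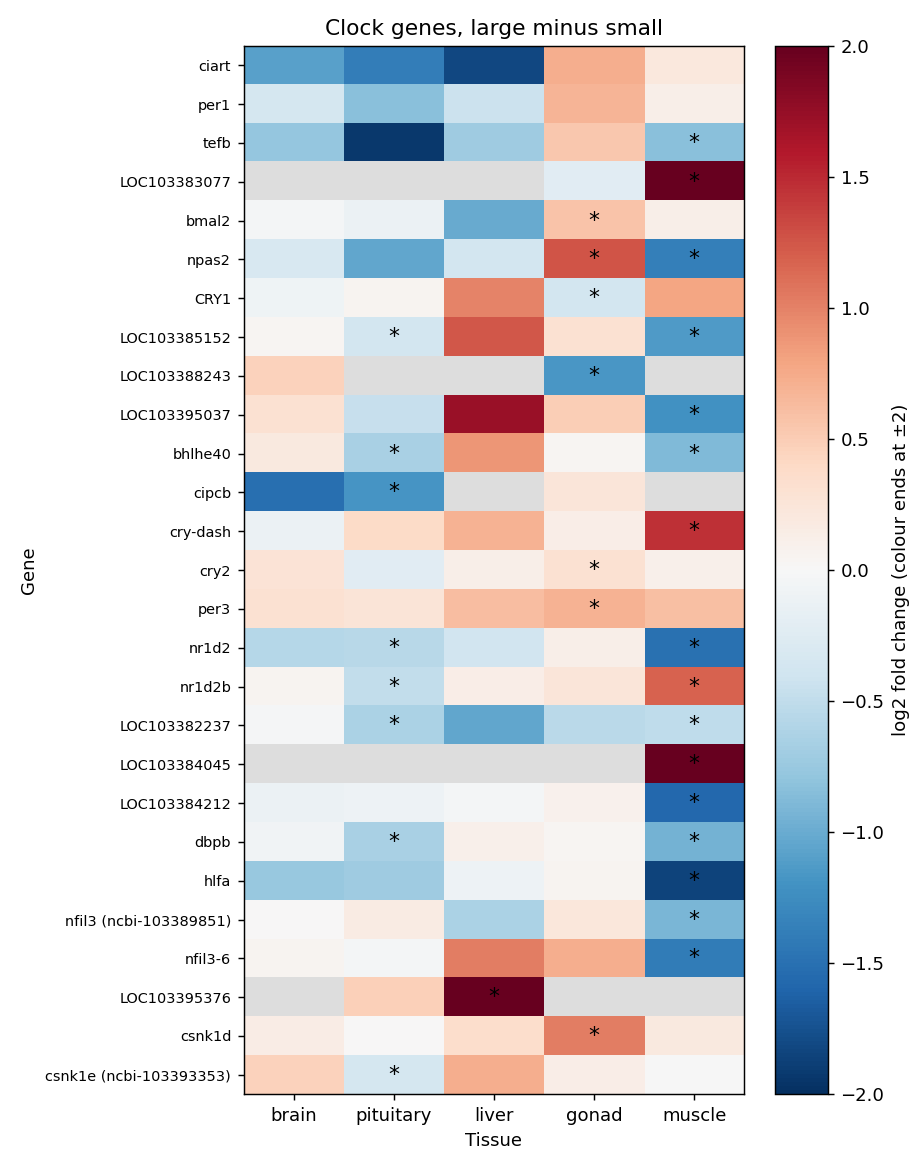
Log2 difference, large minus small females, of per1, tefb and ciart (top 3 rows) and of further clock genes called in at least 1 tissue, by tissue. Colours end at -2 and 2, asterisks mark an adjusted p under 0.05 in edgeR, and grey cells were not tested. tefb, ciart and per1 carry no asterisk in pituitary because that contrast is taken to have chosen them.

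Levels of per1 in mammals respond to glucocorticoids, and immediate early genes respond within minutes to handling of tissue or cells, so both kinds were counted beside the 3 genes from lists also drawn up with results known. The shares of all genes called were 5.82% in pituitary, 23.5% in muscle, 1.31% in liver, 24.5% in gonad and 0.0118% in brain. With the nearly alike libraries summed, 0 of all genes were called in pituitary or muscle and 12 in gonad, so the pituitary and muscle calls of both lists were lost there. Of 13 glucocorticoid-responsive genes tested in pituitary, 3 were called (23.1%), all lower in large females: fkbp5, cebpd and ddit4. In muscle 9 of 15 fell (60%), among them klf9 (20.8 ± 1.62 to 6.996 ± 1.05 normalised CPM, adjusted p = 0.00201) and fkbp5 (42.2 ± 0.559 to 8.62 ± 4.60, adjusted p = 0.00327). In liver cebpd, the gene second most like ciart, fell from 101 ± 33.7 to 17.9 ± 7.77 (log2 -2.49 ± 0.41, adjusted p = 0.0298), and pck1 fell too, 2 of 14 (14.3%). In gonad 1 of 13 (7.69%) rose, tsc22d3 (10.99 to 26.6, adjusted p = 0.00554). In brain 0 of 13 were called by edgeR and 2 by DESeq2, which called 94 of all genes there. At an unadjusted p under 0.05, 1 was higher and 3 were lower, with the share of all genes at that threshold not counted.

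Immediate early genes went different ways in different tissues. In pituitary 7 of 15 were called (46.7% against 5.82% of all genes), all higher in large females, where per1, tefb and ciart were lower. In liver 5 of 12 fell (41.7% against 1.31%), led by egr1 (104 ± 30.1 to 7.35 ± 2.14, adjusted p = 0.00673), and in muscle 8 of 15 fell and 1 rose (60% against 23.5%). In gonad 2 of 11 rose and 1 fell (27.3% against 24.5%). In brain 0 of 20 were called by edgeR or DESeq2. At an unadjusted p under 0.05, 0 were higher and 3 lower, with the share of all genes at that threshold not counted. The part of either list in the values of per1, tefb and ciart was not tested.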

How the data were processed

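Per the file headers, the deposited table holds for each of 30 libraries FPKM values that the authors corrected for transcript length and library size. Per the file headers, the estimated count of fragments per gene was also made by the authors, not normalized, and 2% of values were not whole. The submitters' processing notes name edgeR. The sources used here give no aligner, quantifier, genome build or tool version, so no positions are given. Counts were rounded. Rows were matched to symbols by the deposited table, then by the RefSeq gene table.

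In each tissue, 3 large were compared with 3 small libraries by edgeR 4.0.16 in R 4.3.3 (filterByExpr, TMM, quasi-likelihood F test, two-sided), with Benjamini-Hochberg adjustment over all genes and a threshold of 0.05. Counts at an unadjusted p under 0.05 are given without the share of all genes at that threshold, which was not counted. The SE is the log2 difference over the square root of F, and the 95% intervals use it with 4 degrees of freedom. The edgeR test uses more, so these intervals are approximate and wider than the test implies. Tissue levels were tested over all 30 libraries with 4 contrasts and over 10 tissue pairs, and the interaction with 3 contrasts over 24. Each of these fits used a spread per gene shared by all its tissues. The tests within a tissue and the interaction test were also run on simulated, independent libraries. For the interaction the simulated spread was the same in every gene and tissue. These runs therefore do not cover unequal spread between tissues or nearly alike libraries, and nothing is read from them. Alternatives were DESeq2 1.42.0, limma 3.58.1 on log2 FPKM after adding 1 or 0.1 (genes with at least 1 FPKM in at least 3 libraries, or no filter), median-of-ratios scaling, no low-count filter, a replicate block and leaving out each library. Large and small libraries share replicate numbers but not fish. Same-numbered libraries did not deviate together in every pair of any tissue, so the main tests used no pairing. In brain, numbers 2 and 3 did lean together (r = 0.23 and 0.18, against at most 0.06 and -0.03 with other numbers). In liver they did so less (0.09 and 0.12, against at most -0.04 and 0.11). Whether same-numbered libraries share a batch was not tested.

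The genes and lists were chosen with earlier results of these data known. Named besides per1, tefb and ciart were clock genes called in at least 1 tissue, core clock genes, up to 4 genes per tissue of the other 2 lists, and the 5 genes most correlated with each of the 3. Some called clock genes are counted but not reported by name here. Figures were made with matplotlib 3.10.9 in Python 3.11.15.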

Additional observations from a re-analysis of the deposited data

Results flagged for a closer look

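ciart drew attention because its class difference changed between brain, liver, gonad and muscle by the interaction test (adjusted p = 0.0123). The same test called 21.9% of all genes, and ciart did not pass with the nearly alike libraries summed. In gonad every large library lay above every small one (log2 0.72), as for 23.9% of all genes. In muscle the same held (log2 0.22), as for 21.9% of all genes. In brain (log2 -1.08, 6.01% of genes), liver (log2 -1.83, 12.7%) and pituitary (log2 -1.38, 15.3%) every large library lay below. For single pairs of tissues this difference in direction was not tested, and pituitary is the contrast taken to have chosen the genes. per1 likewise had every large library below every small one in pituitary (log2 -0.84) and above in gonad (log2 0.67), a difference that was not tested.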

How the results depend on the processing

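Precision was limited by 3 libraries per group, by nearly alike libraries in small pituitary, large gonad and small muscle, and by the wide spread of liver libraries. Pituitary values of per1, tefb and ciart kept their sign and stayed within 1 SD under every alternative run. Causes of the changes given here were not tested. Some alternatives were chosen after seeing the data: library totals, summed libraries, and leaving out libraries in the interaction test.

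In liver, ciart passed with DESeq2 (-1.82), no low-count filter (-1.88), limma on log2(FPKM + 1) (-2.58) and log2(FPKM + 0.1) (-2.79) and the replicate block (-2.004). On those limma scales the median of all genes was itself -0.59 and -0.80. ciart did not pass with median-of-ratios scaling (adjusted p = 0.116) or limma with no filter (adjusted p = 0.128). In gonad, per1 passed in limma with a pseudocount of 1 (0.57), of 0.1 (0.93) and of 1 with no filter (0.57), and ciart under the replicate block (0.86). In muscle, tefb missed the threshold in limma (-0.63, -0.79 and, with no filter, -0.63) and with summed libraries (-0.88). With libraries left out in turn, per1 ran from -0.59 to 0.051 in brain, -0.81 to 0.024 in liver, 0.50 to 0.87 in gonad and -0.15 to 0.24 in muscle. tefb ran from -1.03 to -0.27 in brain, -1.09 to -0.16 in liver, 0.22 to 0.89 in gonad and -0.95 to -0.70 in muscle, and ciart from -1.33 to -0.62 in brain, -2.21 to -1.39 in liver and 0.36 to 1.12 in gonad.

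For levels, tefb in liver minus muscle turned to 0.30 with median-of-ratios scaling, and ciart in pituitary minus gonad passed under the block (-0.62). Library totals in place of TMM turned per1 in brain minus liver to 1.39, ciart in pituitary minus muscle to 0.41 and gonad minus muscle to 0.77, and tefb in liver minus gonad to -0.33 and gonad minus muscle to 0.18. With them per1 passed for brain minus muscle (2.02) and pituitary minus liver (2.15), ciart missed for brain minus muscle (-0.12), and the interaction passed for per1 (0.00907) and tefb (0.0276). Summed libraries took the interaction of ciart to 0.208 and its count of genes to 162. Without single libraries, that interaction's adjusted p ran from 0.0385 to 0.375 for per1.

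Counts of all genes called moved as follows. In brain, 2 became 94 with DESeq2 and 10 with the block, and 0 to 3 without single libraries. In pituitary, 912 became 607 in limma with no filter, 597 with the block, 129 to 2386 without single libraries (2386 without large replicate 2) and 0 summed. In liver, 156 became 765 with DESeq2, 627 with no filter, 1149, 841 and 24 in limma (pseudocount 1, 0.1, and 1 with no filter), 253 with the block and 17 to 1209 without single libraries. In gonad, 3455 became 1134 to 3965 without single libraries and 12 summed. In muscle, 3128 became 1506, 1483 and 666 in limma, 1253 to 3897 without single libraries and 0 summed.

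Counts of clock genes called moved too. In pituitary, 8 became 5 with median-of-ratios scaling, 4 with no filter, 5, 5 and 2 in limma, 4 with the block, 0 to 12 without single libraries and 0 summed. In liver, 1 became 5 with DESeq2, 4 with no filter, 4, 3 and 0 in limma, 2 with the block and 0 to 7 without single libraries. In gonad, 9 became 14 in each limma fit, 5 with the block, 2 to 13 without single libraries and 0 summed. In muscle, 15 became 5 in limma with no filter, 7 to 16 without single libraries and 0 summed.

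Replicate numbers were not used to pair libraries in the main tests. The replicate block, besides the values above, changed no call of the 3 genes in brain or muscle, where tefb stayed at -0.85 (adjusted p = 0.0171).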
